A study of Mus musculus with 33 samples.

Results

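The 6 long noncoding RNAs that are retained in the nucleus or abundant in neurons were chosen by name, Meg3, Malat1, Miat, Neat1, Snhg11 and Rian, and their symbols were looked up in the expression table of mouse frontal cortex. Of these 6, 1 is listed, Snhg11, among 21565 genes in 33 libraries, and the other 5 were not analysed here. All of what follows on these RNAs is therefore on Snhg11, which was above 0 in every library, so that it was listed at 0 in no part of the table. In the GENCODE M21 annotation, Snhg11 is typed as a protein-coding gene, as are 19480 of the 21565 rows, whereas Meg3, Malat1, Miat and Neat1 are typed as lincRNA and Rian as a processed transcript. RefSeq types all 6 as lncRNA. Of 20 other small nucleolar RNA host genes and 22 other long noncoding RNAs looked up in the same way, 0 and 0 had a row.

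The libraries came from frontal cortex of adult male mice on a C57BL/6J background, all collected at the same clock phase, ZT 6. Constant darkness began 36 hr before the experimental day. Wild-type (WT) mice slept freely (CS, n = 6), were kept awake for 6 hr on a slow treadmill (SD, n = 7), or were kept awake for 4 hr and then had 2 hr of recovery sleep (RS, n = 7). Mef2c f/f mice carry loxP sites around exon 11 of both Mef2c alleles and have no Cre (CS, n = 4; SD, n = 3). Mef2c-cKO mice carry the same floxed alleles with a Camk2a-driven Cre, which is active in excitatory forebrain neurons (CS, n = 3; SD, n = 3). In this cortex the other cell types keep the gene, except that some of the Mef2c-cKO mice also had germline recombination of an allele according to the study's methods, so that their other cells carry a lower gene dosage. None of the f/f or cKO libraries came from mice with recovery sleep.

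A long noncoding RNA is transcribed and often spliced and polyadenylated like an mRNA, but it is not known to work through a protein product. Some of these RNAs build nuclear bodies. Neat1 is the scaffold of paraspeckles, Malat1 lies in nuclear speckles, the stores of splicing factors, and Miat binds splicing factors. Meg3 and Rian are expressed from the maternal copy of the imprinted Dlk1-Dio3 domain. Snhg11 belongs to the small nucleolar RNA host genes, whose introns are processed into snoRNAs, the small RNAs that guide chemical changes of other RNAs, and it is known as a neuron-rich transcript of the brain. MEF2C, the factor deleted in the cKO, is a transcription factor with a high level in cortical excitatory neurons.

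Snhg11 (ENSMUSG00000044349.15) lies on the forward strand at chr2:158375638-158386145 (GRCm38, GENCODE M21), and its longest annotated transcript has 5864 bases in 5 exons. The annotation places 2 snoRNA genes in intron 3 of that transcript, on the same strand, and they are shown because they are the products for which a host gene of this class is named. Gm25187 lies at chr2:158378222-158378354, where it also overlaps an exon of a shorter isoform, and Gm25129 lies at chr2:158379534-158379666. Each has 133 bases, given below 5′ to 3′ as DNA from the annotated gene, with capitals on the final ACA, the letters that snoRNAs of the H/ACA class carry near their 3′ end.
Gm25187: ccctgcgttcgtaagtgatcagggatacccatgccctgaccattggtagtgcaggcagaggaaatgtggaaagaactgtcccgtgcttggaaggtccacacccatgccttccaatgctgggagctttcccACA
Gm25129: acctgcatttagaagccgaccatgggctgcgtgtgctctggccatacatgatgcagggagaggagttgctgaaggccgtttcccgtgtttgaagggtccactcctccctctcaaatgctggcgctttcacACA
In a global alignment, 93 of 136 columns (68.4%) were identical between them. The libraries were made from poly(A) RNA, so the values below measure the polyadenylated host transcript and not these snoRNAs.

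The promoter window of Snhg11, from 250 bases before to 50 bases after the RefSeq start (chr2:158375463-158375762, GRCm38.p6, forward strand), is shown because the gene differed with Mef2c genotype, with its CpG dinucleotides in capitals.
Snhg11 promoter: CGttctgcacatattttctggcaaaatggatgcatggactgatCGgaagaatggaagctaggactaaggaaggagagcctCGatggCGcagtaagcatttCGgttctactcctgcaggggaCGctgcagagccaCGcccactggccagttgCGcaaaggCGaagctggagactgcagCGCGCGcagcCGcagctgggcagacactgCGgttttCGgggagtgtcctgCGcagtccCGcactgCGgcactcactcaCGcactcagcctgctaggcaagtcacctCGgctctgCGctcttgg
It holds 21 CpG dinucleotides, more than 75.2% of 32851 RefSeq promoter windows of the same length (median 7), and its GC content is 60.0% (median 52.7%). The MEF2 motif, searched on both strands, has 0 matches in this window and at least 1 match in 3.19% of all windows. That is a description of these 300 bases alone.

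The 33 libraries held 18935045 to 249046089 reads, as recovered from the CPM (reads of a gene relative to the library's total) values. Snhg11 took 15605 to 114054 of them per library, which sets a counting error of 0.296% to 0.801% of its value. The SD between libraries was 4.47% to 17.3% of the group mean in all groups but f/f SD. In f/f SD it was 1.03%, beside counting errors of 0.508% to 0.620%. The markers of all 6 cell classes of cortex looked up (excitatory and inhibitory neurons, astrocytes, oligodendrocytes, microglia, and endothelial cells with pericytes) were present in every group. In bulk tissue, fewer cells of a type and less RNA per cell cannot be told apart, and the place of Snhg11 in the nucleus and its cell type were not measured. One library stands apart: the 6 astrocyte markers summed to 2767 rescaled CPM in Mef2c-cKO CS replicate 8, against 1098 and 1101 in the other Mef2c-cKO CS libraries, and the 6 microglia markers to 599 against 198 and 241. The gene-level value of Mef2c did not separate the genotypes (1147 ± 67.3 rescaled CPM in f/f CS, SD, n = 4, and 1431 ± 415 in cKO CS, SD, n = 3; log2 fold change 0.27, adjusted p = 0.382, limma). The floxed part is exon 11 alone and the value counts reads over all exons, so it does not check the deletion. The paper itself reports a partial reduction of exon 11 in Mef2c-cKO mice from exon usage. It also reports the recombined allele in all of their brain samples by PCR.

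Snhg11 was an abundant transcript in all 7 groups. All levels are CPM rescaled by median-of-ratios factors across the libraries, called rescaled CPM below. Its mean over the libraries per kilobase of the longest transcript was 98.5 rescaled CPM, above 96.9% of 12806 genes, whose median was 8.42. Among these genes it was also long, longer than 82.8%, and its transcript had a GC content of 44.8%, above that of 24.8% of them.

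In WT CS the level of Snhg11 ran from 448 to 705 rescaled CPM, with a median of 551 and a mean of 569 ± 98.2 (SD, n = 6). In WT SD it ran from 405 to 585 with a median of 482 and a mean of 481 ± 57.7 (SD, n = 7). In WT RS it ran from 395 to 603 with a median of 528 and a mean of 510 ± 70.5 (SD, n = 7). The 3 ranges overlapped throughout most of their length, and the order of the means, CS above RS above SD, rested on differences within the spread of the libraries.

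In the Mef2c f/f mice the libraries lay close together and higher. The 4 CS libraries had 895, 820, 813 and 834 rescaled CPM (mean 841 ± 37.6, SD), and the 3 SD libraries had 721, 706 and 713 (mean 713 ± 7.34, SD). Every f/f SD library was below every f/f CS library, and these groups did not overlap in 17.4% of all genes tested. In the Mef2c-cKO mice the CS libraries had 502, 557 and 548 rescaled CPM (mean 536 ± 29.4, SD, n = 3), and the SD libraries had 556, 479 and 566 (mean 534 ± 47.7, SD, n = 3). Within each sleep condition the cKO libraries were below the f/f libraries. The 2 genotypes did not overlap, in either direction, in 26.9% of all genes tested under CS and 40.3% under SD.

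**Figure D1:**
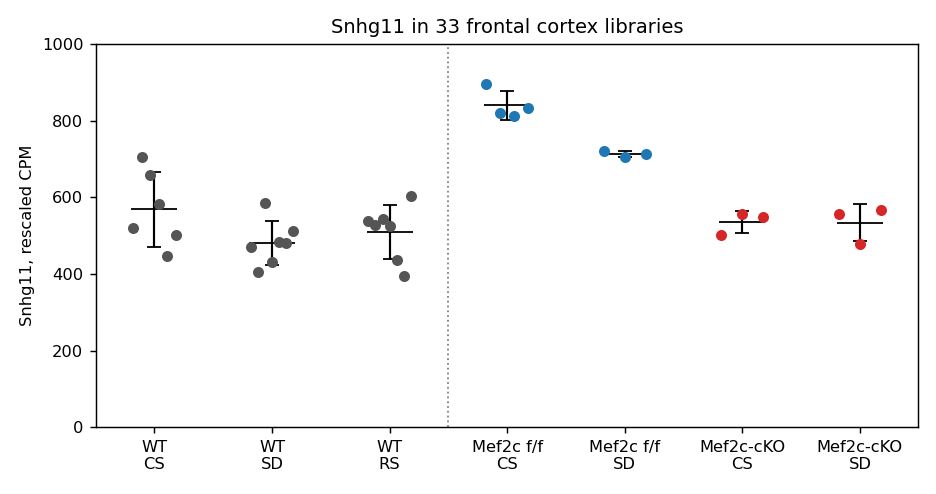
Snhg11 in rescaled CPM (vertical axis, linear, from 0) in each of 33 libraries, by group; the horizontal bar is the group mean and the whiskers are ± 1 SD. The dotted line parts the WT libraries from the Mef2c libraries, whose listed genes sum to different totals. The 6 Mef2c-cKO libraries lie at 479 to 566 and the 7 Mef2c f/f libraries at 706 to 895. These genotypes did not overlap in 26.9% of all genes tested under CS and 40.3% under SD.

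The WT and the Mef2c libraries cannot be ranked against each other on this scale. The listed genes of the WT libraries sum to 925580 to 985958 CPM and those of the 13 others to 1000000, and 2034 genes are listed at 0 in all WT libraries but 4785 in all Mef2c libraries. The lower level of Snhg11 in WT CS (569) than in Mef2c f/f CS (841) thus goes with the part of the table as well as with the mouse line, and these cannot be told apart.

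The largest difference in Snhg11 was between the genotypes. Under CS, Snhg11 was lower in Mef2c-cKO than in Mef2c f/f mice, by 0.65 on the log2 scale (log2 fold change -0.65, SE 0.094, 95% interval -0.86 to -0.44), which is 0.638 times the f/f level (limma, adjusted p = 0.00767). A gene was called where its adjusted p did not exceed 0.05 and its log2 fold change reached 0.3 in either direction. Snhg11 was called in this comparison, beside 7.67% of 12681 genes tested that were called in either direction. In that comparison 1.96% of genes had a lower log2 fold change than Snhg11, and the median of all genes was 0.032. The groups did not overlap, as was true of 26.9% of genes. Without the library with the high glial markers, Mef2c-cKO CS replicate 8, the log2 fold change was -0.67 (adjusted p = 0.0191).

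Under SD, Snhg11 was again lower in Mef2c-cKO than in Mef2c f/f mice, with a log2 fold change of -0.42 (SE 0.082, 95% interval -0.61 to -0.23), or 0.746 times the f/f level (adjusted p = 0.0124). It was called, beside 15.1% of 12774 genes. The groups did not overlap, as was true of 40.3% of genes, and 4.21% of genes had a lower log2 fold change. This call rests on few f/f libraries. Without f/f SD replicate 1 the log2 fold change was -0.41 with an adjusted p of 0.0632, and without f/f SD replicate 3 it was -0.42 with an adjusted p of 0.0509. The comparisons under CS and SD use different mice and share no library.

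Some markers of the cell classes were called between the genotypes too, beside 7.67% of all genes called by limma under CS and 15.1% under SD. The summed level of the 6 excitatory neuron markers was 1959 to 2379 rescaled CPM in f/f CS and 1657 to 2162 in cKO CS, with 0 of 6 called by limma (median log2 fold change -0.031), 2 at an unadjusted p under 0.05 and 2 called by DESeq2. Under SD it was 2391 to 2540 in f/f and 1908 to 2121 in cKO, and 2 of 6 were called lower, among them Nrgn (-0.66), a calmodulin-binding protein of the postsynapse. Of the 6 microglia markers, 0 were called by limma under CS, 5 had an unadjusted p under 0.05 and 3 were called by DESeq2 (summed 164 to 191 in f/f, 198 to 599 in cKO) and 5 were called higher by limma under SD (summed 183 to 188 against 225 to 255). Of the 6 astrocyte markers, 1 was called higher under CS (summed 912 to 967 against 1098 to 2767) and 2 under SD (983 to 1000 against 1169 to 1295). Of the 6 inhibitory neuron markers, limma called 1 higher under CS, and 3 higher and 1 lower under SD. For the 6 oligodendrocyte markers it called 2 higher under CS and 1 lower under SD. For the 6 markers of endothelial cells with pericytes it called 1 lower under CS, and 2 higher and 1 lower under SD. None of these lists had a member at 0 in any group mean, and their part in the difference of Snhg11 was not tested.

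Sleep loss gave smaller differences. In Mef2c f/f mice the log2 fold change of Snhg11 from CS to SD was -0.24 (SE 0.079, 95% interval -0.41 to -0.060). The groups did not overlap, as was true of 17.4% of genes, but the adjusted p was 0.195 with limma, so it was not called, beside 0.0403% of 12410 genes called. DESeq2 on the recovered reads gave the same size with an adjusted p of 0.0136, still under the fold threshold. In that fit DESeq2 called 466 of all genes. In Mef2c-cKO mice the log2 fold change was -0.0082 (SE 0.098, 95% interval -0.24 to 0.22, adjusted p = 0.999), beside 0.0234% of 12810 genes called. The difference between these changes, cKO minus f/f, was 0.23 (SE 0.12, 95% interval -0.024 to 0.48, adjusted p = 0.643) and was not called, beside 0.00778% of 12860 genes. A dependence of the sleep-loss change on genotype was therefore not shown.

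In WT mice the log2 fold change of Snhg11 from CS to SD was -0.23 (SE 0.11, 95% interval -0.48 to 0.013, adjusted p = 0.100), not called, beside 45.1% of 12913 genes. From CS to RS it was -0.15 (SE 0.12, 95% interval -0.42 to 0.11, adjusted p = 0.332), not called, beside 17.5% of 12752 genes. From SD to RS it was 0.079 (SE 0.10, 95% interval -0.14 to 0.29, adjusted p = 0.986), not called, beside 0.0232% of 12921 genes. The signs of these changes depended on the processing. With CPM as deposited, on which the median of all genes was 0.30, the change from CS to SD was 0.043 for Snhg11, and with a trend on GC content and length removed it was 0.080. Across genes, the CS to SD change rose with GC content in WT mice (Spearman rho 0.72 over 12460 genes, which are not independent replicates), and Snhg11 has a lower GC content than most of them. The change in Mef2c f/f minus that in WT was -0.0037 (SE 0.17, 95% interval -0.35 to 0.35, adjusted p = 0.990), not called, beside 15.1% of 13106 genes. It was -0.27 with CPM as deposited and -0.34 with the GC and length trend removed (adjusted p = 0.0976), so its size depended on the processing as well.

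**Figure D2:**
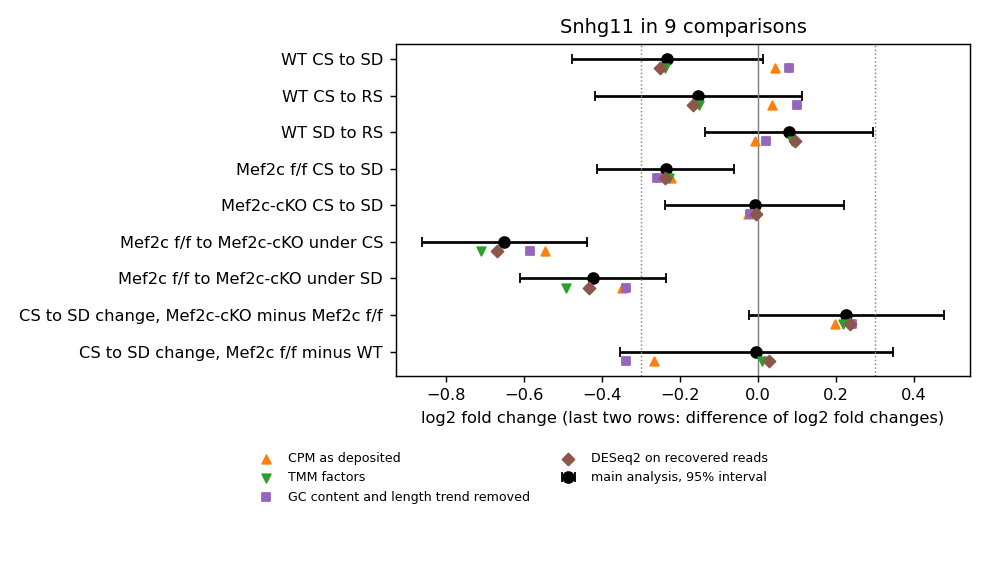
Log2 fold change of Snhg11 (horizontal axis) in 9 comparisons; black points are the limma estimates with 95% intervals, the coloured symbols are 4 other ways of processing, and dotted lines mark ± 0.3. The last 2 lines are differences between log2 fold changes. The genotype differences stay below -0.3 in every way of processing drawn, whereas the WT CS to SD change lies on either side of 0.

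The genes whose levels followed Snhg11 most closely from library to library were looked for in the 20 WT libraries, as deviations from the group mean in log2 rescaled CPM, among 9606 genes with a mean of at least 10 CPM. The highest Pearson r was that of Hnrnpd, an RNA-binding protein also called AUF1 (r = 0.90, Spearman rho 0.94, n = 20), and it was 0.92 without the 2 libraries farthest from the median. Next came Chd8, a chromatin remodeller (r = 0.88), and Zkscan16, a zinc finger protein (r = 0.87). The lowest r was that of Cldn5, the tight junction protein of the blood-brain barrier (r = -0.91). Transcript GC content was 41.7% for Hnrnpd, 49.4% for Chd8, 46.8% for Zkscan16 and 60.5% for Cldn5. These are the extremes of many genes in 1 set of 20 libraries, where each library's depth and base composition bear on all its genes, and they are given as a description.

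In the 13 Mef2c f/f and Mef2c-cKO libraries, which took no part in that choice, the same genes had r of -0.069 for Hnrnpd, 0.11 for Chd8, 0.20 for Zkscan16 and 0.38 for Cldn5. The SD of Snhg11 was 1.03% to 8.93% of the group mean there, against 12% to 17.3% in the WT groups. The likeness seen in the WT libraries was thus not seen in the others, and whether the r values differ between the parts was not tested.

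**Figure D3:**
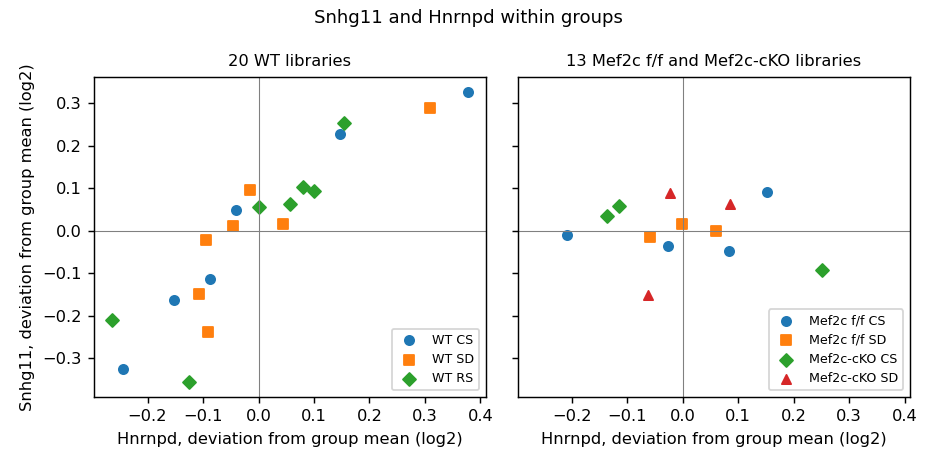
Deviation of Snhg11 from its group mean (vertical axis, log2) against that of Hnrnpd (horizontal axis, log2), 1 point per library, with the 20 WT libraries on the left and the 13 Mef2c f/f and Mef2c-cKO libraries on the right. The WT points rise along a line (r = 0.90) and the others do not (r = -0.069). Hnrnpd was chosen for having the highest r of 9606 genes in these same WT libraries. The spread of Snhg11 within groups was narrower in the 13 others.

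For the 5 RNAs without a row, most of the proteins and neighbouring genes looked up are listed. Of 15 paraspeckle proteins, the partners of Neat1, 14 were tested. From WT CS to SD, 1 was called higher and 4 lower, a share no higher than the 45.1% of all genes called (median log2 fold change -0.058, against 0.038 for all genes). Those called lower were Pspc1 (-0.49), a core paraspeckle protein, Taf15 (-0.44), Cpsf6 (-0.44), a cleavage factor subunit, and Matr3 (-0.40), a nuclear matrix protein, and Dazap1 (0.47) was called higher. Pspc1 was 138 ± 25.3 rescaled CPM in WT CS (SD, n = 6) and 97.8 ± 11.7 in WT SD (SD, n = 7). These directions depend on the scaling. With CPM as deposited 3 were called higher and 0 lower. With the GC and length trend removed 3 were called higher and 1 lower (median 0.081), and Cpsf6 (0.13) and Matr3 (0.15) changed sign.

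Between the genotypes under CS, 2 of the 14 tested paraspeckle proteins were called lower in Mef2c-cKO mice and 0 higher, beside 7.67% of all genes called in either direction. Among them was Hnrnph3 (-0.53), an RNA-binding protein, which was called at every scaling tried. Hnrnph3 was 51.7 ± 2.84 rescaled CPM in f/f CS (SD, n = 4) and 35.5 ± 1.64 in cKO CS (SD, n = 3). Under SD, 0 of 14 were called by limma and 0 by DESeq2. An unadjusted p under 0.05 was found for 3 of the 14, beside 4357 of all 12774 genes. For Hnrnph3 the log2 fold change under SD was 0.025 (adjusted p = 0.852, limma).

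Of 20 nuclear speckle and Miat-binding proteins, the partners of Malat1 and Miat, all 20 were tested. From WT CS to SD, 4 were called higher and 4 lower, again no more often than the 45.1% of all genes (median 0.14), among them U2af2 (0.60) and Ddx39b (0.42), both of early spliceosome assembly and export, and Qk (-0.55), the quaking RNA-binding protein, and Srsf11 (-0.42). With CPM as deposited 11 were called higher and 0 lower, and with the GC and length trend removed 4 higher and 0 lower, so the named falls depend on the processing. Between the genotypes 2 of 20 were called lower under CS, beside the same 7.67% of all genes, Srrm2 (-0.40), a speckle scaffold protein, and Acin1 (-0.35). Neither was called with CPM as deposited or with the GC and length trend removed. Under SD, Srrm2 was called lower (-0.30) and Srsf2, a splicing factor of the SR family, higher (0.31), both close to the fold threshold. With the GC and length trend removed 0 of 20 were called under SD.

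Of the 8 genes of the Dlk1-Dio3 domain looked up, the neighbours of Meg3 and Rian, 5 were listed and 3 or 4 tested. Begain, a postsynaptic protein, was called higher from WT CS to SD (0.68), but with the GC and length trend removed its change was 0.032. Dlk1, a paternally expressed membrane protein, was called higher in Mef2c-cKO than in f/f mice under SD (1.37, adjusted p = 0.00513, limma). Its levels were low, 1.32 ± 0.295 against 0.202 ± 0.128 rescaled CPM (SD, n = 3 each). It passed the filter on low values through the cKO SD libraries alone, as no f/f SD library exceeded 0.277. Every f/f SD value also lay below the constant added before the log2, so the size of 1.37 depends on that constant. Dlk1 had 1.28 ± 0.627 in cKO CS (SD, n = 3) and 0.206 ± 0.137 in f/f CS (SD, n = 4). Under CS it did not pass the filter on low values.

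The nuclear RNA exosome and its adaptors degrade introns and unstable nuclear transcripts. Of its 17 genes, all tested, 3 were called higher and 2 lower from WT CS to SD, a share under the 45.1% of all genes (median -0.013), led by the core subunits Exosc4 (0.85) and Exosc5 (0.64) upward and by the nuclease Dis3 (-0.47) and the adaptor Zfc3h1 (-0.39) downward. With CPM as deposited 7 were called higher and 0 lower, and with the GC and length trend removed 5 higher and 1 lower. Between the genotypes 0 were called under CS and 0 under SD by limma and by DESeq2, and 0 and 2 had an unadjusted p under 0.05. Over all genes, 3557 of 12681 under CS and 4357 of 12774 under SD had such a p.

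Over the 4 lists together, 10 of 54 genes tested were called from WT CS to RS, near the 17.5% of all genes, and 8 of 54 for the f/f change minus the WT change, near the 15.1% of all genes. From WT SD to RS limma called 0 of 54. From CS to SD it called 0 of 54 in Mef2c f/f and 0 of 55 in Mef2c-cKO mice. DESeq2 called 0 in each of these 3 comparisons, beside 54, 466 and 25 of all genes. An unadjusted p under 0.05 was found for 0, 5 and 2 of the listed genes. Over all genes this held for 683 of 12921, 2111 of 12410 and 391 of 12810. For the cKO change minus the f/f change limma called 0 of 55 and DESeq2 1, and 3 had an unadjusted p under 0.05. Over all genes DESeq2 called 59 there, and 1005 of 12860 had such a p in the limma fit.

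**Figure D4:**
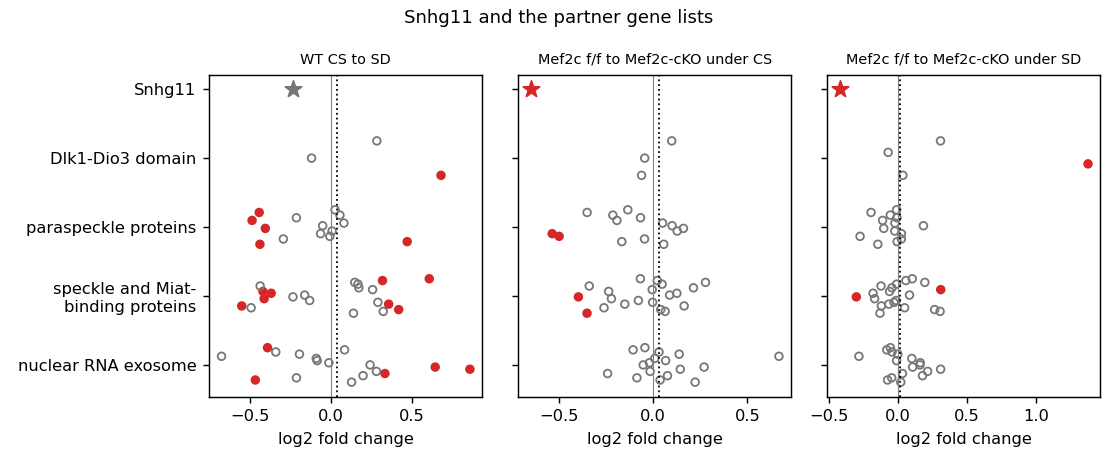
Log2 fold change (horizontal axis) of Snhg11 (star) and of each tested gene of 4 partner lists (circles, 1 per gene) in 3 comparisons; filled red marks are called, open grey circles and the grey star are not, and the dotted line is the median of all genes. Snhg11 is called in both genotype comparisons, as are 4 of 54 partner genes under CS and 3 of 55 under SD, beside 7.67% and 15.1% of all genes. Among those 3 is Dlk1, which passed the filter on low values through the cKO SD libraries alone.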

How the data were processed

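Frontal cortex poly(A) RNA libraries (stranded, NextSeq500) were trimmed, mapped with STAR to mm10, counted with HTSeq and turned into CPM by the authors with edgeR; the deposited CPM table was used here. The annotation release is not given in the sources used here. Whole reads were recovered from all 711645 CPM values (tolerance 0.01). CPM were rescaled by median-of-ratios factors over 11570 genes, and log2(rescaled CPM + 0.5) was tested with limma 3.58.1 (R 4.3.3), with only the compared groups in each fit and Benjamini-Hochberg adjustment over all genes with at least 1 CPM in every library of a compared group. Fold changes are on that log2 scale. Calls needed an adjusted p no higher than 0.05 and a log2 fold change that reached 0.3 in either direction; differences between changes needed the adjusted p alone. edgeR 4.0.16 and DESeq2 1.42.0 were run on the recovered reads as alternatives, beside TMM factors, CPM as deposited, a pseudocount of 1, no filter, a correction for GC content and length, the replicate block and leaving out each library. The code was tested on simulated data.

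The members and gene lists were chosen with earlier results of these data known. Named were the 6 RNAs, Mef2c, up to 2 called genes with the largest rise and 2 with the largest fall per list and comparison, and the 3 genes of highest and the 1 of lowest r with Snhg11; marker genes were named where called. Some genes that this rule names are not reported here. Samples were taken as separate mice; p-values measure the spread between these libraries. Intervals of the fits are 95% intervals, and counting errors cover counting alone. Gene positions come from GENCODE M21 and promoter sequence from RefSeq (GRCm38.p6).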

Additional observations from a re-analysis of the deposited data

How the results depend on the processing

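The lower level of Snhg11 in Mef2c-cKO mice kept its sign in all 14 alternatives under CS, where it was called in 14 (log2 fold change -0.71 to -0.55), and in all 13 under SD, where it was called in 11 (-0.49 to -0.34). Leaving out each library in turn gave -0.68 to -0.60 under CS and -0.47 to -0.35 under SD, and the calls lost under SD were those without f/f SD replicate 1 or 3. The sleep-loss changes were called in none of their alternatives. With CPM as deposited the change was 0.043 from WT CS to SD, 0.037 to RS and -0.0062 between SD and RS. With the GC and length trend removed the WT change was 0.080 for SD and 0.099 for RS, each against CS. The cKO change ran from -0.054 to 0.068 as each library was left out. The f/f change minus the WT change was -0.27 with CPM as deposited, -0.34 with the GC and length trend removed, 0.011 with TMM factors, 0.017 with edgeR and 0.030 with DESeq2, and ran from -0.069 to 0.062 as each library was left out.

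Same-numbered libraries did not deviate together in every pair, so the numbers were not taken to pair mice. With the replicate block, the change of Snhg11 was -0.32 from WT CS to SD (adjusted p = 0.104), -0.24 in f/f and 0.085 in cKO mice, and the f/f change minus the WT change was 0.079; it changed no call for Snhg11. No blocked fit was made between f/f mice, numbered 1 to 4, and cKO mice, numbered 5 to 8, which share no number. What the numbers stand for is not given, and a difference that follows them cannot be told apart from genotype there. The block moved the count of genes called from WT CS to SD from 5826 to 287, and that of RS against CS from 2232 to 4279.

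Counts over all genes, the background beside Snhg11, moved more. Over the alternatives other than leaving out a library they were 287 to 6907 for WT SD against CS, 385 to 4279 for RS against CS, 0 to 54 for RS against SD (3 as reported), 0 to 466 in f/f (5) and 1 to 25 in cKO mice (3), 911 to 2095 between genotypes under CS (973), 1705 to 2291 under SD (1927), 1 to 59 for cKO minus f/f (1) and 0 to 3426 for f/f minus WT (1983). As each library was left out, they were 4509 to 6411 for WT SD against CS, 0 to 3740 for RS against CS, 0 to 9 for RS against SD, 0 to 590 in f/f and 1 to 3 in cKO mice, 171 to 875 between genotypes under CS, 822 to 2447 under SD, 1 to 2 for cKO minus f/f and 23 to 3300 for f/f minus WT, so the shares of all genes printed beside Snhg11 carry that uncertainty. The counting error of Snhg11 was at most 0.801% of its value.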
